A study of Homo sapiens and Mus musculus with 12 samples.

Results

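Transcripts of 10 digestive enzyme genes of the exocrine pancreas were examined in RNA-seq libraries of natural killer (NK) cells sorted from mouse spleen. The genes were Ctrb1, Prss2, Cela2a, Cela3b, Cpa1, Cpb1, Pnlip, Clps, Try4 and Try5, taken by symbol from the 22021 genes of the mouse count table, and each symbol occurred once. They were selected as a trace of pancreatic tissue after the difference between KO and WT libraries had been seen. Their values in this comparison are therefore given as a description, without a test.

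The KO mice were Ehmt2 flox/flox; Ncr1 iCre animals, in which Cre recombinase is expressed from Ncr1, the gene of the NK receptor NKp46, so that deletion of the floxed Ehmt2 allele is directed to NKp46+ cells. The WT mice were Ehmt2 flox/flox animals without Cre. Both carried the floxed allele, were C57BL/6J, untreated, and matched as young adults for age and sex. There were 3 libraries per group, and the sources used here do not say whether a library came from 1 mouse or from a pool. The genotype label of the KO samples reads Ezh2-KO, whereas their titles read EHMT2-KO, and the titles were followed. A second part of the series comprised NK92MI cells, an established human NK cell line, cultured with the EHMT2 inhibitor BIX-01294 or with DMSO, 3 libraries each.

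Acinar cells of the pancreas make and store a small set of hydrolases as zymogens, the inactive forms of enzymes, and release them into the gut. Trypsin, once activated in the duodenum, cleaves and activates the other protease zymogens, while lipase with its cofactor colipase digests fat. These transcripts are among the most abundant in acinar cells, and they are not among the genes that define NK cells. The tail of the pancreas lies against the hilum of the spleen. In a bulk library, fewer cells of a type and less RNA per cell cannot be told apart.

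The 6 mouse libraries held from 25891680 (WT replicate 2) to 37438868 counts in all, and the human libraries from 16579469 to 17165446. Ehmt2, the targeted gene, was at 150 ± 18.1 CPM (TMM-normalized counts scaled to library size; SD, n = 3) in KO libraries, against 282 ± 5.94 CPM (SD, n = 3) in WT (log2 fold change −0.91, adjusted p = 0.0162 by edgeR). The 12 NK cell markers examined, among them Il2rb and Gzma, were present in every library and summed to between 11287 and 12855 CPM in KO and between 6182 and 9960 CPM in WT NK cells. Of these, 6 of 12 were higher in KO (edgeR, adjusted p under 0.05 and |log2 fold change| over 0.5), against 2.82% of all genes tested. Low mouse counts were mostly even: between 86.3% and 89.8% of the values from 1 to 20 were even in the mouse libraries and between 44.3% and 45.9% in the human libraries. Whether a count of 2 in mouse is 1 fragment was not tested.

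The trypsinogen genes share much of their sequence, which bears on how far their counts can be separated. In the 741 coding bases of Try4 and Try5 there were 19 mismatches (97.4% identity), and 70.4% of all windows of 50 coding bases of Try4 also occurred, without a mismatch, in a transcript of another gene. The value was 58.5% for Try5 and 8.67% for Prss2. Counts of Try4 and Try5 are therefore uncertain relative to each other and to their copies. The 120 coding bases (319 to 438 of the coding sequence) over which these 3 genes are most alike are shown here from the GENCODE vM21 transcripts, with bases that differ from Try4 in capitals.
Try4: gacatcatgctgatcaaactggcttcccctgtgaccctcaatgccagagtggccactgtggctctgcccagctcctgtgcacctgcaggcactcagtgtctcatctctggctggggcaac
Try5: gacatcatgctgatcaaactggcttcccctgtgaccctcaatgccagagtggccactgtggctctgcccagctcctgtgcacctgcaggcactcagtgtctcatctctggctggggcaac
Prss2: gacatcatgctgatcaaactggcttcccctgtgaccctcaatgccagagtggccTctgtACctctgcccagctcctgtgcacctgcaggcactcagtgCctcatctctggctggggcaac

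Try4 and Try5 are identical in this window, and Prss2 differs from them at 4 positions. At the end of the coding sequence (bases 622 to 741) Prss2 differs from Try4 at 17 of 120 positions and Try5 at 3, so Prss2 can be told from both there, whereas Try4 and Try5 remain alike over most of the stretch.
Try4: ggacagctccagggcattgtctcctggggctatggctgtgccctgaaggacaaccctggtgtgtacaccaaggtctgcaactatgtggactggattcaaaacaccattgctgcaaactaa
Try5: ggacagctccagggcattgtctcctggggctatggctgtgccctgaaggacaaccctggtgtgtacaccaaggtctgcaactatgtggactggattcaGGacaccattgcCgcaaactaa
Prss2: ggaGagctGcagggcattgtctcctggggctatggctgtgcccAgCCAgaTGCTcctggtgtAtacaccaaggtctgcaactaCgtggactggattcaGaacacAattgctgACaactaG

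Of the other members, Cela2a shared 24.1% of its windows with Ctrc, a chymotrypsin and elastase relative, and Cela3b shared 28.4% with Cela3a, whereas Ctrb1, Cpa1, Cpb1, Pnlip and Clps shared none.

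Together, the 10 genes held 8146, 10371 and 54774 raw counts in WT libraries and 168, 492 and 162 raw counts in KO libraries, here and below in the order of replicates 1, 2 and 3. All 10 genes were lower in every KO replicate than in any WT replicate. All 10 also passed the filter on low counts, which they did through the WT libraries. Among the 13189 genes tested, 19.3% had every KO replicate below every WT replicate. Since the genes were chosen from this contrast, the difference between these shares is not a result. What the choice did not fix is how unevenly the counts were spread within each genotype. WT replicate 3 exceeded both other WT libraries for all 10 genes, and KO replicate 2 exceeded both other KO libraries for all 10 genes.

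**Figure D1:**
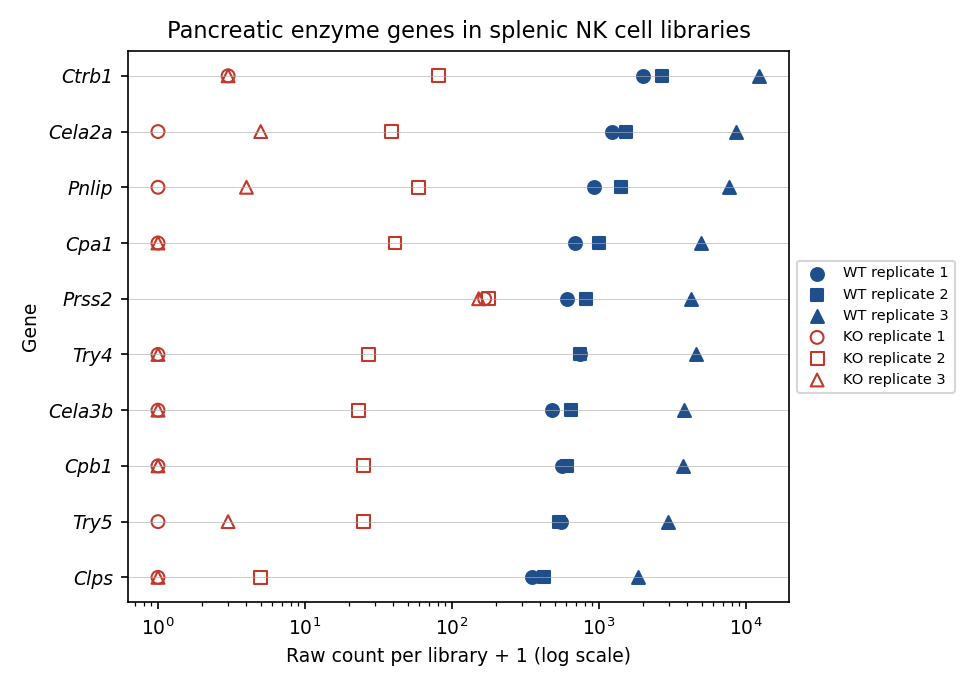
Raw counts plus 1 (log axis) of the 10 pancreatic enzyme genes, with filled blue symbols for the 3 WT libraries and open red symbols for the 3 KO libraries. WT replicate 3 lies highest for every gene, KO replicate 2 leads the KO libraries, and Prss2 is the only gene with over 100 counts in each KO library.

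Chymotrypsinogen B, encoded by Ctrb1 (chromosome 8 of GRCm38, 111686519 to 111691010, minus strand), gave the highest counts of the 10 genes in each WT library. Its raw counts were 2008, 2670 and 12353 in the WT libraries and 2, 80 and 2 in the KO libraries. Normalized, the WT mean was 163 ± 148 CPM (SD, n = 3) and the KO mean 0.755 ± 1.21 CPM (SD, n = 3), so the SD was close to the mean in WT and above it in KO.

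The trypsinogen genes lie within the T cell receptor beta (Trb) locus on chromosome 6, which is their normal genomic position. Try4 (41302269 to 41305532, plus strand) had 746, 748 and 4600 counts in the WT libraries and 0, 26 and 0 in the KO libraries. Try5 (41311233 to 41316841, minus strand) had 548, 532 and 2957 counts in WT and 0, 24 and 2 in KO NK cells. For both genes KO replicate 2 was the only KO library above 3 counts.

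Prss2, another trypsinogen gene (41521787 to 41525079, plus strand), departed from this pattern. It had 604, 812 and 4265 counts in the WT libraries but 166, 176 and 151 in the KO libraries. Its level was thus nearly equal in the KO libraries (4.47 ± 0.304 CPM; SD, n = 3), including the pair in which the 9 other genes summed to 2 and 11 counts. Relative to 100 counts of Ctrb1, Prss2 had 30.1, 30.4 and 34.5 counts in the WT libraries and 220 in KO replicate 2. The mean in KO was 8.25% of the mean in WT NK cells, against 0.143% to 0.611% for the other 9 genes. Of the 3 trypsinogen members Prss2 lies nearest to the diversity segment Trbd1 of the Trb locus. On the same strand, 8121 bases separate it from Trbd1 and 13138 bases from the constant gene Trbc1. Try4 lies 20278 bases from the variable segment Trbv30. The mouse count table used here lists no Trb segment. Whether the position of Prss2 bears on its counts in KO was not tested. Acinar genes elsewhere in the genome also kept counts in each KO library: Ctrl (chromosome 8) had 66, 97 and 42, and Cela1 (chromosome 15) had 508, 377 and 403.

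The elastase genes among the members lie on chromosome 4 and encode serine proteases of the elastase family. Cela2a (141814962 to 141826160, minus strand) had 1235, 1522 and 8598 counts in WT and 0, 38 and 4 in the KO libraries, and was second to Ctrb1 in each WT library. Cela3b (137420999 to 137430540, minus strand) had 476, 642 and 3818 counts in WT and 0, 22 and 0 in KO NK cells.

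The carboxypeptidases remove single amino acids from the end of peptides, Cpa1 those with aromatic or aliphatic and Cpb1 those with basic side chains. Cpa1 (chromosome 6, 30639218 to 30645363, plus strand) had 686, 998 and 4939 counts in WT and 0, 40 and 0 in the KO libraries. Cpb1 (chromosome 3, 20248264 to 20275733, minus strand) had 562, 610 and 3732 counts in WT and 0, 24 and 0 in KO NK cells. Both were at 0 in the same KO libraries.

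Pancreatic lipase, encoded by Pnlip (chromosome 19, 58652498 to 58681788, plus strand), had 930, 1414 and 7662 counts in WT and 0, 58 and 3 in the KO libraries. Its cofactor colipase, encoded by Clps (chromosome 17, 28558149 to 28560766, minus strand), had the lowest counts of the set, with 351, 423 and 1850 in WT and 0, 4 and 0 in KO NK cells. Pnlip ranked 3 of the 10 genes and Clps last in every WT library.

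Raw counts favour long transcripts. Per kilobase of annotated exon, the mean level in WT NK cells ran from 14.1 CPM per kb for Cpb1 to 186 CPM per kb for Ctrb1, with Try4 (71.9), Prss2 (66.4) and Cela2a (62.5) following Ctrb1. Clps rose from last by raw count to 41.2 CPM per kb, close to Try5 (42.4) and Pnlip (43.4). The spread between WT libraries is shared by the genes, so the order was compared within each library. Ctrb1 stood above Try4 in every WT library, at 61.7, 118 and 378 CPM per kb against 25.1, 36.2 and 154. The order by mean was not kept in every WT library between Try4 and Prss2, Pnlip and Try5, or Try5 and Clps, and it was kept between the other neighbours.

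Within the WT libraries the genes kept nearly the same proportions while their summed level changed several-fold. The CPM of WT replicate 3 exceeded that of WT replicate 1 by 5.25-fold (Clps) to 8.20-fold (Pnlip), with a median of 6.77-fold over the 10 genes. WT replicate 2 exceeded WT replicate 1 by 1.40-fold (Try5) to 2.19-fold (Pnlip), with a median of 1.84-fold. KO replicate 2 stood at 1.14% (Clps) to 6.23% (Pnlip) of WT replicate 1 for the 9 genes without Prss2, with a median of 4.26%, and at 29.1% for Prss2. The Clps value rests on 4 counts. In the other KO libraries 9 and 8 of the 10 genes had 3 counts or fewer, so proportions could not be read there. These ratios compare single libraries, and counts per library are given without a test.

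**Figure D2:**
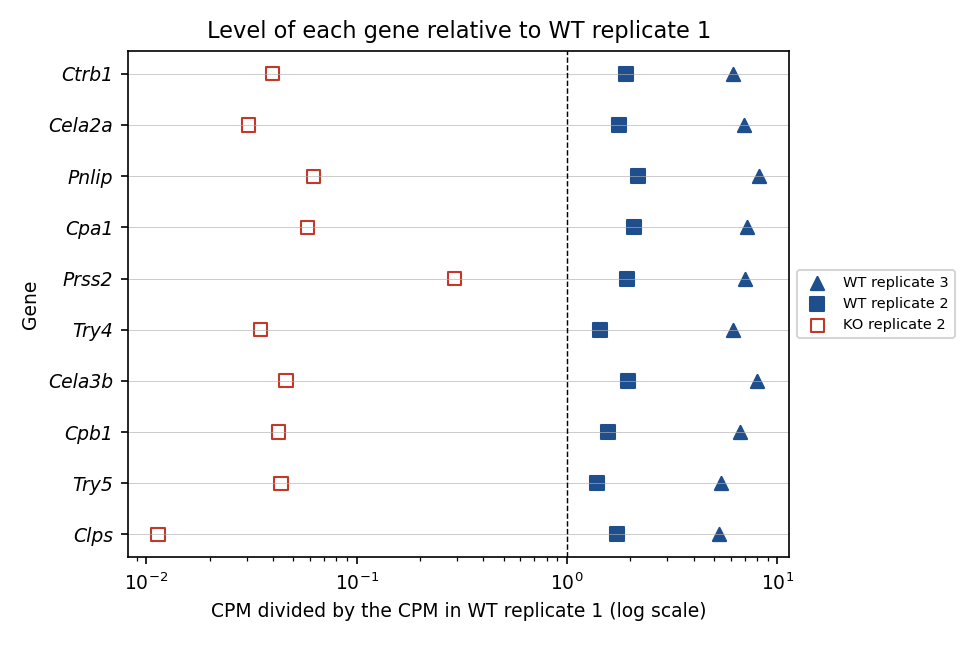
CPM of each pancreatic enzyme gene divided by its CPM in WT replicate 1 (dashed line; log axis), for WT replicates 2 and 3 (filled blue) and KO replicate 2 (open red). Ratios lie between 5.25 and 8.20 in WT replicate 3 and between 1.40 and 2.19 in WT replicate 2, and Prss2 stands apart in KO replicate 2.

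To see whether the enzymes stood alone, the other genes of acinar cells were examined from lists written with the earlier results known. Of 51 other acinar genes (enzymes, secretory and protective proteins, and transcription factors), 48 were in the table and 23 passed the filter on low counts. Tested by edgeR (quasi-likelihood, Benjamini-Hochberg adjustment over all 13189 genes), 17 of these 23 were lower in KO and 0 were higher, when an adjusted p below 0.05 was required together with a |log2 fold change| above 0.5, where 6.69% of all genes tested were lower and 2.82% higher. The median log2 fold change of the 23 genes was −4.78, against 0.01 for all genes tested. Genes such as Cel, Rnase1 and Reg1, at or near 0 in KO libraries, passed the filter on low counts through the WT libraries alone and so had to differ. With lists written after the contrast had been seen, the count and the median are a description and support nothing further. At the study's threshold of 0.01 edgeR called 0 of the 23 and 0 of all genes (0% of 13189), while 19 of the 23 were lower at an unadjusted p under 0.05, against 20% of all genes, and DESeq2 called 16 of the 23 lower, against 7.9% of all genes lower and 2.88% higher by DESeq2. The 17 calls depended on single libraries: 0 remained without KO replicate 2 or without KO replicate 3, when edgeR called 0 of all genes, and 5 without WT replicate 3, when it called 14 genes in all. At an unadjusted p under 0.05, 20 of 26 tested were lower without KO replicate 2, 21 of 26 without KO replicate 3 and 18 of 23 without WT replicate 3. The share of all genes at this p in these refits is not available here, so these counts too are a description. The log2 fold change of Cel was −9.65 without KO replicate 2 and −7.49 without KO replicate 3, against −7.79 with all libraries, and that of Cela1 was −2.77 and −2.82, against −2.86.

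Among the other enzymes, 11 of 13 tested were lower in KO NK cells by edgeR at an adjusted p under 0.05, against 6.69% of all genes tested. Those at or near 0 in KO libraries passed the filter on low counts through the WT libraries alone. Cela1, a further elastase gene, had 2017, 1024 and 5965 counts in the WT libraries and 508, 377 and 403 in the KO libraries (log2 fold change −2.86 ± 0.51 SE, adjusted p = 0.0291 by edgeR). Klk1, which encodes tissue kallikrein, had 4094, 1169 and 3097 counts in WT and 1134, 971 and 485 in KO NK cells (log2 fold change −1.77 ± 0.38 SE, adjusted p = 0.0387 by edgeR). Unlike the 10 genes described first, Klk1 was highest in WT replicate 1, and neither gene approached 0 in KO NK cells. Cel, the bile salt-activated lipase gene, had 690, 1062 and 5452 counts in WT and 0, 28 and 6 in the KO libraries (log2 fold change −7.79 ± 1.12 SE, adjusted p = 0.0239 by edgeR). 2210010C04Rik, which lies between the variable segments Trbv1 and Trbv30 of the Trb locus, had 664, 792 and 5198 counts in WT. In KO NK cells it had 0, 46 and 2 counts. The chymotrypsin-like gene Ctrl had 438, 550 and 2573 counts in WT and 66, 97 and 42 in KO NK cells. The lipase relative Pnliprp2 and the phospholipase gene Pla2g1b fell to at most 2 and 10 counts in KO, from between 60 and 480 and between 44 and 284 in WT. Prss3 was at 82, 10 and 38 counts in the WT libraries and at 0 in each KO library. With 3 counts over the KO group as the floor, it was at least 44.4-fold lower. That bound takes each count as 1 fragment, which was not tested. Prss3 was thus highest in WT replicate 1, unlike the 3 trypsinogen members, and it shares 73.8% of its windows with other genes. Ctrc (log2 fold change −1.62, adjusted p = 0.118 by edgeR) and Amy1 (0.66, adjusted p = 0.452) did not pass the test.

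The pancreatic amylases, abundant acinar products that digest starch, were nearly missing from the counts. Amy2a2, Amy2a3 and Amy2a4 were at 0 in every library, Amy2a1 reached 2 counts and Amy2a5 reached 8. The coding sequences of Amy2a2, Amy2a3, Amy2a4 and Amy2a5 are identical over 1527 bases, and 100% of the windows of each of these genes and of Amy2a1 occur in another gene. How reads that match several genes were counted is not given in the sources used here, so these zeros do not measure amylase transcripts.

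Of the secretory and protective genes of acinar cells, 6 of 7 tested were lower in KO NK cells by edgeR at an adjusted p under 0.05, against 6.69% of all genes tested. They were Zg16 and Sycn (zymogen granule proteins), Reg1 and Reg2 (regenerating proteins), Gp2 (the major glycoprotein of the zymogen granule membrane) and Dmbt1 (a secreted scavenger receptor protein). Zg16 had 253, 184 and 1023 counts in WT and 40, 56 and 34 in the KO libraries. Reg1 had 154, 244 and 1202 counts in WT and 0, 8 and 0 in KO NK cells. Sycn showed the same order, with 118, 134 and 776 counts in WT and 0, 4 and 0 in KO NK cells. Dmbt1 had 140, 167 and 953 counts in WT and 2, 4 and 2 in KO. Gp2 had 136, 90 and 520 counts in WT and 10, 6 and 12 in KO, and Reg2 had 68, 12 and 192 in WT and 0, 2 and 0 in KO. Their counts did not overlap between the genotypes, and 19.3% of all genes tested had every KO replicate below every WT replicate. Reg1, Reg2, Sycn and Dmbt1, at or near 0 in KO libraries, passed the filter on low counts through the WT libraries alone. Erp27, a chaperone of the endoplasmic reticulum, was the exception, with 37 to 64 counts in WT and 59 to 79 in KO NK cells (log2 fold change 0.30, adjusted p = 0.513 by edgeR).

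None of the 3 acinar transcription factors tested passed the threshold. Xbp1, which is active in many secretory cells, had between 3222 and 8280 counts in WT and between 4487 and 5187 in KO NK cells (log2 fold change −0.42 ± 0.19 SE, adjusted p = 0.159 by edgeR). Bhlha15, also expressed in plasma cells, had 190, 58 and 136 counts in WT and 84, 58 and 28 in KO NK cells (log2 fold change −1.26, adjusted p = 0.0901 by edgeR). Gata6 also did not pass the test (log2 fold change −0.70, adjusted p = 0.246 by edgeR). Ptf1a and Rbpjl, subunits of the acinar-specific PTF1 complex, reached 4 and 18 counts in WT replicate 3 and were at 0 in all KO libraries, too few for the test. Gata4 and Nr5a2 reached 4 counts at most.

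**Figure D3:**
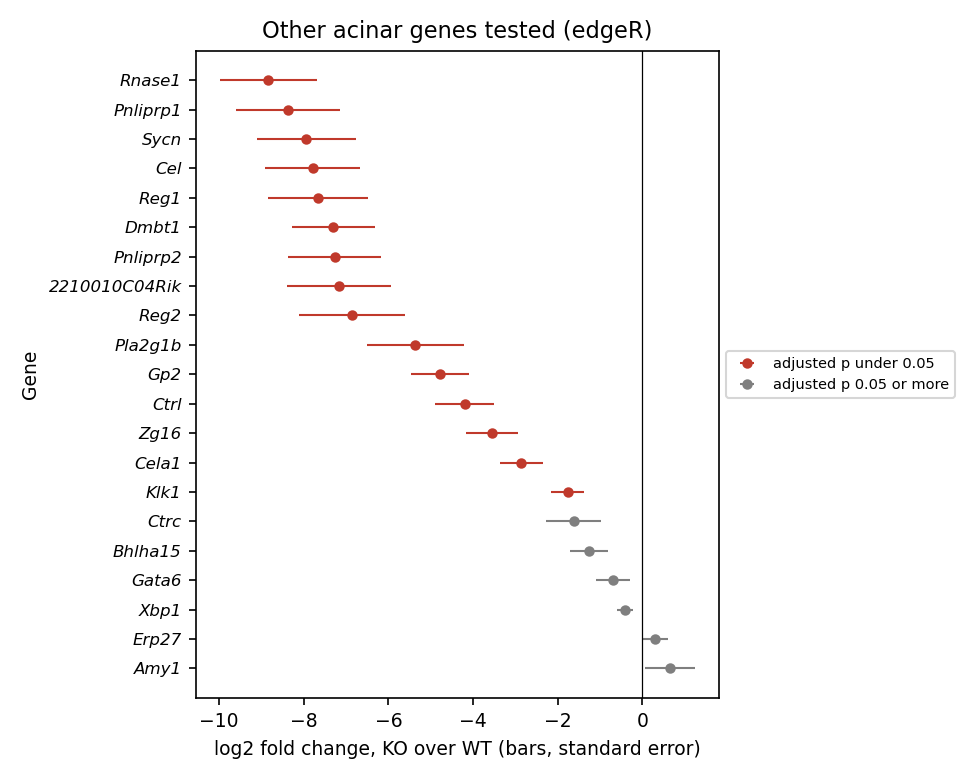
Log2 fold change of KO over WT NK cells (points) with its standard error (bars) for 21 of the 23 other acinar genes tested with edgeR, red where the adjusted p was under 0.05. Prss3, whose fitted fold change depends on the prior count because it is at 0 in each KO library, is among those not drawn, and Rnase1 lies lowest at −8.83.

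A search over the whole table asked which genes followed the enzymes across libraries. Likeness was Pearson's r between the log2 CPM of a gene and the log2 summed CPM of the 10 enzymes over the 6 mouse libraries, which share depth and normalization, among 449 genes with at least 30 counts and at least 0.5 of the 8.37 log2 range of the enzymes. The 10 most alike were Dmbt1, Sycn, Pnliprp1, Rnase1, Ctrl, Reg1, Zg16, Pnliprp2, Reg3b and Tff2, with r from 0.968 to 0.997. All 10 are on the acinar lists, which were written with earlier results of these data known. The share of the 449 genes that is on these lists is not available here, so this count is a description. The correlations are a description over libraries in which the enzymes were already known to differ. Rnase1, the secreted pancreatic ribonuclease, had 404, 536 and 2683 counts in the WT libraries and 0, 8 and 0 in the KO libraries. Pnliprp1, a relative of pancreatic lipase, had 266, 328 and 2074 counts in WT and 0, 8 and 0 in KO NK cells.

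Islet genes were mostly at 0. Of 22 islet genes, 15 were at 0 in all 6 libraries, among them Ins1, Ins2, Sst, Ppy and Iapp, and Gcg reached 2 counts in WT replicate 3 alone. Chgb and Pcsk1 reached 8 and 5 counts. The 3 islet genes tested, Cpe, Scg5 and Mafa, are also expressed outside islets, and none passed the test (0 of 3 also at an unadjusted p under 0.05). Of 14 duct and epithelial genes, 7 were tested, and by the same edgeR threshold of 0.05 Cdh1 and Krt18 were lower and Spp1 was higher in KO, where 6.69% of all genes were lower and 2.82% higher. At an unadjusted p under 0.05, 3 of the 7 were lower and 1 was higher, against 20% of all genes lower. Cdh1 had between 1254 and 1880 counts in WT and between 862 and 1186 in KO NK cells, and Muc1 and Epcam did not pass the test, while Cftr and Krt19, which mark ducts, stayed at 2 and 6 counts or fewer. The most abundant of the 12 stellate, fibroblast and endothelial genes were Pecam1 and Cdh5, and 1 of 10 tested, Cdh5, was lower. At an unadjusted p under 0.05, 4 of the 10 were lower, against 20% of all genes.

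Genes of other abdominal organs were near 0 in most cases. Of 14 liver genes 10 had at most 3 counts in any library, including Alb and Apob, and Trf, the transferrin gene, also made by macrophages, was the 1 tested. It had 1574, 304 and 886 counts in WT and 374, 173 and 289 in KO and was lower (log2 fold change −1.78, adjusted p = 0.0482 by edgeR). Of 13 stomach and intestine genes listed, 8 had at most 3 counts in any library and 0 of 3 tested passed the test (1 lower at an unadjusted p under 0.05, as were 20% of all genes). Of 11 fat and mesothelium genes 3 were tested and 0 passed (0 at an unadjusted p under 0.05). The most abundant of these 2 lists were Lct and Muc5ac, and Fabp4 and Wt1.

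The summed markers of other leukocytes were also lower on average in KO NK cells, with an order of libraries that differed from that of the enzymes. The enzymes summed to 220, 402 and 1471 CPM in the WT libraries and 4.57, 13.3 and 4.44 CPM in the KO libraries. The 8 B cell markers, led by Cd79a and Cd22, summed to 855, 534 and 1547 CPM in WT and 497, 107 and 90.1 CPM in KO NK cells, with 0 of 8 called by edgeR at 0.05 after adjustment and 6 of 8 lower at an unadjusted p under 0.05, where 20% of all genes were. The 8 neutrophil markers, led by S100a9 and S100a8, summed to 205, 68.9 and 748 CPM in WT and 80.1, 1.89 and 2.52 CPM in KO NK cells. By edgeR at an adjusted p under 0.05, 2 of 7 tested were lower, against 6.69% of all genes. WT replicate 3 was thus highest for enzymes, B cell markers and neutrophil markers alike. Among KO libraries, however, the B cell and neutrophil markers were highest in replicate 1 and the 10 enzymes in replicate 2. The list of other acinar enzymes, which holds Klk1 and Cela1, did not share this order. It summed to 242, 226 and 773 CPM in WT and 48.6, 44.0 and 28.5 CPM in KO libraries. Among KO libraries it was thus highest in replicate 1 too.

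The 10 macrophage and monocyte markers, led by Lyz2 and Csf1r, summed to 6031, 2426 and 4559 CPM in WT and 2348, 1319 and 1818 CPM in KO NK cells. At the same edgeR threshold 6 of 9 tested were lower, against 6.69% of all genes. The plasma cell markers, led by Jchain and Prdm1, summed to 653, 141 and 293 CPM in WT and 160, 96.1 and 112 CPM in KO NK cells, with 0 of 5 called after adjustment and 3 of 5 lower at an unadjusted p under 0.05, against the same 20% of all genes. Prdm1 was the only 1 of the 5 with a positive log2 fold change (0.18, adjusted p = 0.404 by edgeR). It held 58.8 and 66.7 CPM of the sums in KO replicates 2 and 3, so these sums are mostly Prdm1. Both lists were highest in WT replicate 1, where the enzymes were lowest of the WT libraries. The part of other cells in the enzyme counts was not tested.

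**Figure D4:**
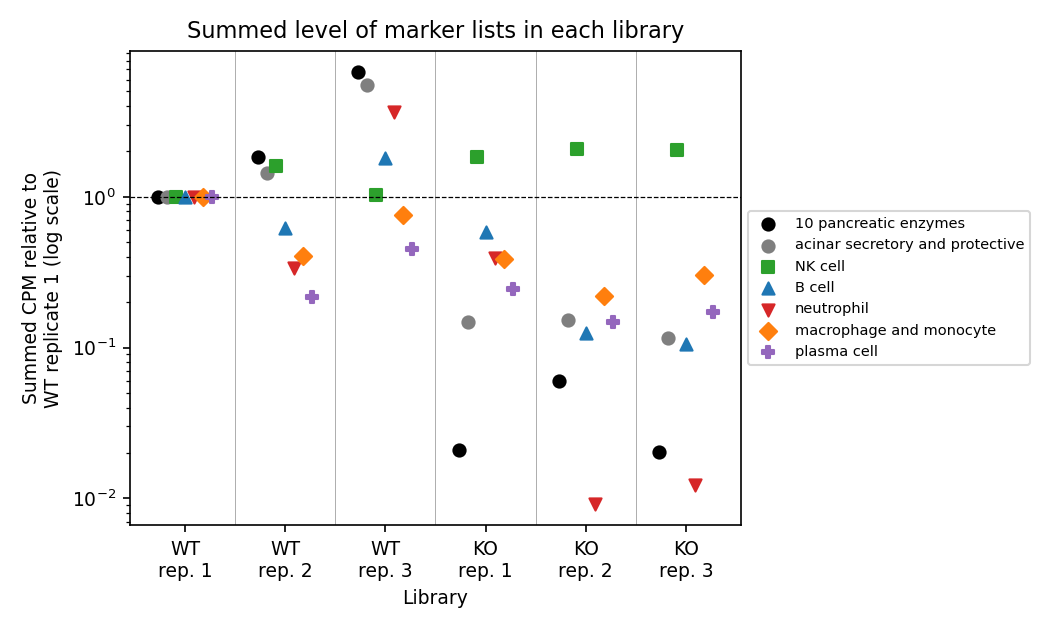
Summed CPM of 7 gene lists in each mouse library divided by the sum in WT replicate 1 (dashed line; log axis). The 10 pancreatic enzymes (black) stand at 6.70 times WT replicate 1 in WT replicate 3 and at 0.0603 times in KO replicate 2. The B cell and neutrophil markers are highest among KO libraries in replicate 1. The list of other acinar enzymes, also highest there, is not drawn.

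In the human NK92MI libraries, none of the 8 human orthologs of the members (CTRB1, PRSS2, CELA2A, CELA3B, CPA1, CPB1, PNLIP and CLPS) was among the 18304 genes listed. Of 23 other human acinar genes 7 were listed and 3 passed the filter. CEL had 26, 18 and 8 counts in the BIX-01294 libraries and 16, 20 and 11 in the DMSO libraries (log2 fold change 0.17 ± 0.43 SE, adjusted p = 0.789 by edgeR). AMY2B had 63 to 75 counts with BIX-01294 and 50 to 70 with DMSO (log2 fold change 0.21 ± 0.20 SE, adjusted p = 0.434 by edgeR). RBPJL also did not pass the test (adjusted p = 0.790 by edgeR), in a comparison where, by the study's threshold of 0.01, 6.24% of genes tested were higher with BIX-01294 and 5.43% lower.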

How the data were processed

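RNA-seq was performed on polyA RNA of splenic NK cells (3 WT and 3 KO) and NK92MI cells (3 BIX-01294 and 3 DMSO). The authors trimmed reads with fastp 0.23.4, aligned them with STAR 2.7.11b against mm10 (GRCm38) for mouse and hg38 (GRCh38) for human, and obtained counts with HTSeq 2.0.3, per the methods and the submitters' processing notes. The files deposited by the authors hold unnormalized counts, 1 row a gene symbol. The annotation release and strand setting are not given in the sources used here. Positions, exon lengths and coding sequences came from GENCODE vM21 (GRCm38), which may not be their release.

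Counts were fitted per species with edgeR 4.0.16 in R 4.3.3 (quasi-likelihood test, TMM, filterByExpr, Benjamini-Hochberg adjustment), with DESeq2 1.42.0 as an alternative, at the study's thresholds (adjusted p under 0.01, |log2 fold change| over 0.5) and at 0.05. With 3 libraries per group, whose independence is not stated, p-values measure only the spread between these libraries. The procedure was also run on simulated data, with the same spread for all genes and changes only in well-counted genes. That setting differs from the enzymes, with their near-0 counts in KO, so the simulation does not bear on them. The members and lists were chosen with earlier results of these data known. All members were named, with the called and the 5 most abundant genes of the acinar, islet and duct lists, the 2 most abundant of other lists and the 10 most alike genes. Amylases, defining markers near 0 and other exceptions were named after their values were seen. The values of 1 other acinar gene are not reported here, though the counts of genes include it. A count of 3 was the floor, for counting error only. Human control columns could not be tied to single DMSO samples and were used as a group. Alternatives covered scaling, filters, the test, a replicate block, single libraries left out and subsets of members.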

Additional observations from a re-analysis of the deposited data

How the results depend on the processing

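The log2 ratio of the summed CPM of the 10 enzymes, KO over WT, was −6.55. It was −7.78 without the trypsinogen genes and −7.77 without Prss2 (an alternative chosen after seeing the data), since Prss2 holds most of the KO counts, and between −7.28 and −5.39 with single libraries left out. Other scalings and summaries moved it by less than the spread between libraries. By edgeR at an adjusted p under 0.01, 0 genes of the table and 0 other acinar genes were called. These numbers were 34 and 1 with no filter, 1500 and 19 with DESeq2, 1254 and 17 at an adjusted p under 0.05, and 0 to 1163 and 0 to 15 with single libraries left out, the highest without WT replicate 2. DESeq2 without WT replicate 3, chosen after seeing the data, gave 526 and 11. With the replicate number as a block they were 819 and 14. Whether the numbers pair the libraries is not known: the correlation of deviations of same-numbered libraries was 0.26, 0.31 and −0.18. KO replicate 2 correlated best with its own number and KO replicate 3 did not. KO replicate 1 correlated nearly equally with WT replicate 1 (0.257) and WT replicate 3 (0.258). With 3 libraries per group these correlations cannot show or exclude pairing. Counts halved and rounded gave 0 and 0. No other acinar gene changed direction under any alternative run. In human cells the 1485 calls stayed between 1163 and 1898. No paired analysis was possible in human cells because the DMSO columns carry no replicate number. Relative to the count, counting error is largest for genes near 3 counts, which are most members in KO replicates 1 and 3. It also affects the low counts of KO replicate 2. Low mouse counts were mostly even, so counting error may be larger than the counts alone give, which was not tested.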
